A study of Mus musculus with 8 samples.

Results

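Neuropeptide precursor genes are among the transcripts by which subsets of midbrain dopaminergic (mDA) neurons are told apart. The 10 described here are Nts, Gal, Tac1, Sst, Npy, Cck, Adcyap1, Grp, Vip and Penk. They were chosen with earlier results of these data known, so counts and medians set against other genes describe them and test nothing. Each was taken as the probeset that carries its symbol alone in the platform annotation, which gave 10 probesets, 1 a gene, of the 35512 on the Mouse Gene ST array. All 10 reached the signal minimum for testing. Expression was profiled in mDA neurons sorted from the substantia nigra compacta (SNc) or the ventral tegmental area (VTA) of newborn mice. The 8 arrays fall into 4 groups of 2, SNc KO, SNc WT, VTA KO and VTA WT. All pups were C57Bl/6, were between postnatal days 1 and 4 and carried Th-EGFP on 1 allele (Th-EGFP+/-), so the green fluorescent protein marks cells that express tyrosine hydroxylase, the rate-limiting enzyme of catecholamine synthesis. KO pups were Pitx3-/- and WT pups Pitx3+/+, and Pitx3 is a homeobox factor that a subset of mDA neurons needs to survive. In the study's scheme SNc WT cells are a mixture of Pitx3-positive and Pitx3-negative neurons, SNc KO cells are the spared dorsal Pitx3-negative ones, and VTA KO cells still include neurons that would have expressed Pitx3. EGFP-positive, propidium iodide-negative cells were sorted, and every sample was a pool of stored batches. Whether the duplicate pools were from different animals is not given in the sources used here. The p-values therefore cover the spread between duplicate pools and no more, and that spread may be technical. For each gene it was estimated once over all 4 groups, so every comparison also carries the spread of groups not compared.

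Neuropeptides are cut from larger precursor proteins inside dense-core vesicles and are released beside the classical transmitter to act on G protein-coupled receptors. In the ventral midbrain they are known for modulating dopamine release and firing, with cholecystokinin and neurotensin the best-known partners of dopamine in the same cells. Several precursor genes, somatostatin first among them, are textbook targets of cyclic AMP signalling through the factor CREB.

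Of 9 dopaminergic identity markers all were tested and above a linear signal of 60 on all arrays, and 0 passed adjustment in either knockout comparison. Their summed linear signal was 5861 to 6511 in SNc KO and 7977 to 8606 in SNc WT, and 5810 to 5951 in VTA KO and 7043 to 7142 in VTA WT. Th differed by -0.08 ± 0.14 log2 (SNc) and 0.12 ± 0.14 (VTA) between KO and WT, while Slc6a3, the dopamine transporter, was lower in KO without passing, at -0.98 ± 0.13 (SNc, adjusted p = 0.077) and -0.90 ± 0.13 (VTA, adjusted p = 0.176). The serotonergic markers Tph2 and Slc6a4 and the noradrenergic markers Dbh and Slc6a2 were below a linear signal of 60 on all 8 arrays. The Pitx3 probeset was not lower in KO arrays (7.90 in SNc KO, 7.68 in SNc WT, 8.00 in VTA KO and 7.97 in VTA WT), and the part of the gene it probes is not given in the sources used here. Aldh1a1, a known target of Pitx3, read 8.33 and 8.69 in SNc KO, 11.26 and 11.38 in SNc WT, 9.78 and 9.45 in VTA KO, and 11.38 and 11.16 in VTA WT, so it was lower on every KO array than on every WT array. The VTA KO arrays differed most from each other. Their standard deviation, pooled over the probesets tested, was 0.376 log2, against 0.241 to 0.252 in the other groups.

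The 10 precursors did not share a pattern. Nts, Gal and Tac1 were highest in SNc KO and lowest in VTA KO, Cck and Adcyap1 were lowest in SNc WT, and Grp was highest in VTA WT. Sst was highest in SNc KO, Npy in SNc WT and Vip in VTA KO, while the group means of Penk spanned only 0.51 log2. A linear signal of 60, or 5.91 on the log2 scale, is the minimum that the study's thresholds use, and 7 genes were above it on all 8 arrays. Nts, Adcyap1 and Vip were above it on 7 arrays each.

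**Figure D1:**
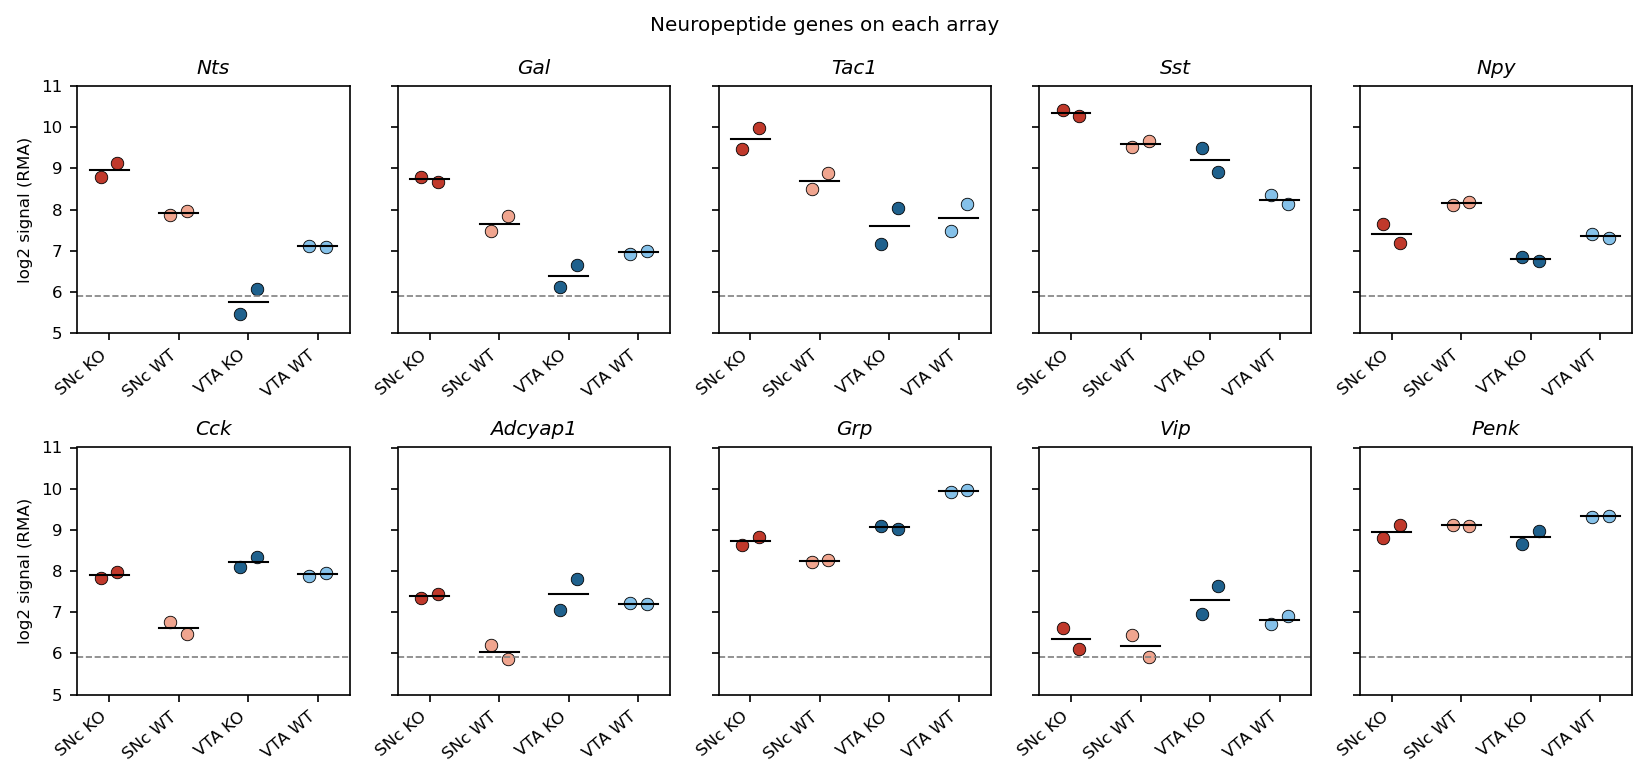
Log2 signal of each of the 10 neuropeptide genes on each array, with 1 panel a gene, points for the 2 arrays of SNc KO, SNc WT, VTA KO and VTA WT, bars for group means and a dashed line at 5.91, the log2 of 60. Nts lies near the dashed line in VTA KO only, and Adcyap1 in SNc WT only.

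The proximal promoters of these genes are shown because many neuropeptide genes are known to respond to cyclic AMP and several of them have similar profiles. RefSeq windows (GRCm38.p6) run from 250 bases before to 50 after each start site. Windows were read for 8 of the genes and none was used for Penk or Grp. The core letters of the cyclic AMP response element, TGACG searched on both strands, were in the windows of 7 of the 8 genes, all but Npy, and in 20.8% of the 32851 windows of all genes. The full palindrome TGACGTCA, which contains these letters on each strand, was in the Sst window alone and in 1.79% of all windows. An AP-1 site (TGACTCA) was in the Nts window alone and in 5.2% of all windows. The bicoid-type homeodomain letters TAATCC and TAAGCC, bound by factors of the Pitx class, were in 0 of the 8 and in 15.8% of all windows. A match is a string of letters and not a measured site. Stretches around the matches are printed below with the motif letters in capitals, positions being counted from the start site. In Nts the first capital stretch is the AP-1 letters read on the opposite strand and the second is the cyclic AMP element core. The core match of Gal, which lies after its start, and a second one of Tac1 at -197 to -193 are not shown.
Nts (chr10:102490560-102490645, minus strand, -227 to -142): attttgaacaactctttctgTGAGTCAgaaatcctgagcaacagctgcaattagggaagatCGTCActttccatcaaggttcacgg
Cck (chr9:121495717-121495761, minus strand, -67 to -23): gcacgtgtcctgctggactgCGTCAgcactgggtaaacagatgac
Vip (chr10:5639119-5639163, plus strand, -99 to -55): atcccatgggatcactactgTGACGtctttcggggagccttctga
Adcyap1 (chr17:93198906-93198950, plus strand, -111 to -67): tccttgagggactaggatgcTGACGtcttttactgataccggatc
Tac1 (chr6:7554998-7555042, plus strand, -63 to -19): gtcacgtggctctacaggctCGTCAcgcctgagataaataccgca
Sst (chr16:23890865-23890912, minus strand, -68 to -21): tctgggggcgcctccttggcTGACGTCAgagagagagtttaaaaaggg

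Nts encodes the precursor of neurotensin, a peptide that excites dopaminergic neurons through its receptor Ntsr1. Its log2 signal was 8.78 and 9.12 in SNc KO, 7.86 and 7.97 in SNc WT, 5.46 and 6.08 in VTA KO, and 7.12 and 7.10 in VTA WT. No group overlapped another, and the order was SNc KO, SNc WT, VTA WT, VTA KO. Gal encodes galanin, a peptide that mostly inhibits neurons through Gi-coupled receptors. It read 8.78 and 8.68 in SNc KO, 7.47 and 7.83 in SNc WT, 6.12 and 6.64 in VTA KO, and 6.92 and 7.00 in VTA WT, again without overlap and in the same order as Nts. Tac1 encodes substance P and neurokinin A, the tachykinins. Its signal was 9.46 and 9.98 in SNc KO, 8.51 and 8.89 in SNc WT, 7.15 and 8.05 in VTA KO, and 7.47 and 8.14 in VTA WT. Here the arrays of VTA KO and VTA WT overlapped, and SNc KO and SNc WT stood above both.

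Cck encodes cholecystokinin. Its signal was 7.83 and 7.97 in SNc KO, 6.76 and 6.47 in SNc WT, 8.10 and 8.35 in VTA KO, and 7.87 and 7.96 in VTA WT. The SNc WT arrays stood apart below the other 6, and SNc KO overlapped VTA WT. Adcyap1 encodes PACAP, which raises cyclic AMP in its target cells. Its values were 7.33 and 7.45 in SNc KO, 6.21 and 5.86 in SNc WT, 7.06 and 7.80 in VTA KO, and 7.22 and 7.20 in VTA WT. SNc WT was again the low group, at 0.13 above log2(60) on average, and the VTA KO arrays lay on either side of both SNc KO and VTA WT. Vip encodes vasoactive intestinal peptide, which shares receptors with PACAP. It read 6.61 and 6.11 in SNc KO, 6.44 and 5.91 in SNc WT, 6.95 and 7.65 in VTA KO, and 6.72 and 6.90 in VTA WT. Both VTA groups were above both SNc groups, and the SNc groups overlapped.

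Grp encodes gastrin-releasing peptide, the mammalian relative of bombesin. It was at 8.64 and 8.82 in SNc KO, 8.22 and 8.27 in SNc WT, 9.10 and 9.02 in VTA KO, and 9.91 and 9.97 in VTA WT. The groups did not overlap and the order was VTA WT, VTA KO, SNc KO, SNc WT. Sst encodes somatostatin, an inhibitory peptide. It was at 10.41 and 10.28 in SNc KO, 9.52 and 9.66 in SNc WT, 9.50 and 8.91 in VTA KO, and 8.34 and 8.13 in VTA WT. SNc KO was the highest group and VTA WT the lowest, and between them the lower SNc WT array (9.52) lay just above the higher VTA KO array (9.50).

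Npy encodes neuropeptide Y, best known for its role in feeding. It read 7.64 and 7.18 in SNc KO, 8.12 and 8.18 in SNc WT, 6.84 and 6.76 in VTA KO, and 7.42 and 7.31 in VTA WT. SNc WT was highest and VTA KO lowest, and SNc KO overlapped VTA WT. Penk encodes proenkephalin, the source of the enkephalins that act on mu and delta opioid receptors. Its values were 8.80 and 9.11 in SNc KO, 9.13 and 9.09 in SNc WT, 8.66 and 8.98 in VTA KO, and 9.31 and 9.34 in VTA WT. VTA WT was the highest group and the other groups overlapped, except that both VTA KO arrays were below both SNc WT arrays.

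SNc KO against SNc WT sets the dorsal neurons spared in the mutant against the mixed SNc population. None of the 10 precursors passed the test, but 7 read higher on both SNc KO arrays than on both SNc WT arrays. Adcyap1 was 1.35 ± 0.25 log2 higher (SE, adjusted p = 0.174), Cck 1.29 ± 0.15 (adjusted p = 0.0582), Gal 1.08 ± 0.20 (adjusted p = 0.181) and Nts 1.04 ± 0.22 (adjusted p = 0.233). The difference was 1.02 ± 0.37 for Tac1, 0.75 ± 0.21 for Sst and 0.48 ± 0.11 for Grp, with adjusted p between 0.279 and 0.514. Npy, at -0.74 ± 0.16 (adjusted p = 0.263), was the gene that read lower on both arrays, and the intervals of Vip (-0.54 to 0.92) and Penk (-0.53 to 0.23) included 0. In a pool of sorted cells, fewer cells of a type and less RNA per cell cannot be told apart.

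Differences were tested with limma's moderated test over all 22112 probesets with a linear group mean of at least 60 in at least 1 group, with Benjamini-Hochberg adjustment and a threshold of 0.05. It called 0 of the 10 precursors here, against 0.149% of all probesets tested. At the study's thresholds (unadjusted p at most 0.05, at least 1.5-fold and a signal of at least 60 in a compared group), 6 precursors were higher (1.84% of all) and 1 was lower (1.76% of all). Without adjustment 8 of the 10 passed, against 8.62% of all. Groups did not overlap for 7 precursors higher in SNc KO (24% of all) and 1 lower (20% of all). The median difference of the 10 was 0.89 log2, against 0.01 over all probesets. Cck passed with array weights (adjusted p = 0.0235), which were equal within each group and lowest for VTA KO (0.457).

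Marker genes differed in this comparison too. Both tested glutamatergic markers, Slc17a6 and Slc17a8, were higher at the study's thresholds and summed with Slc17a7 to a linear signal of 1119 to 1164 in SNc KO, against 526 to 631 in SNc WT. The SNc WT mean of Slc17a8 was under the signal minimum (-0.52 relative to log2(60)). The 3 GABAergic markers summed to 1160 to 1275 in SNc KO and 759 to 818 in SNc WT, and the 6 pericyte and smooth muscle markers to 1726 to 1918 in SNc KO and 555 to 643 in SNc WT. Pdgfrb and Acta2, which define pericytes and smooth muscle, were below 60 on both SNc WT arrays and above it on both SNc KO arrays. The summed signal of the dopaminergic list given above was lower in SNc KO. Of that list Pitx3 (7.90 against 7.68) and Foxa2 (7.37 against 7.21) averaged higher in SNc KO. Mrc1, a macrophage gene, was lower (-1.40 ± 0.14 log2, adjusted p = 0.0381) and was the 1 marker of another cell type that passed here. Its SNc KO mean was -0.60 relative to log2(60). Cx3cr1, the other gene of its list that was tested, averaged higher in SNc KO (7.04 against 6.86). Csf1r, Aif1 and C1qa were not tested, since no group mean reached the signal minimum. Genes of known dopaminergic subsets passed too, with Aldh1a1 (-2.81 ± 0.18), Ndnf (-1.52 ± 0.13) and Sox6 (-1.41 ± 0.13) lower and Otx2 (2.13 ± 0.21) higher in SNc KO. Otx2, which the study names as a VTA marker, read 8.03 and 8.10 in SNc KO and 7.76 and 7.79 in VTA WT. The part of these markers in the differences of the precursors was not tested.

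VTA KO against VTA WT asks which genes depend on Pitx3 in cells that are still present. Nts was lower in VTA KO by a measured -1.34 ± 0.22 log2 (adjusted p = 0.185). Its VTA KO mean was -0.14 relative to log2(60), under the signal minimum, with arrays at 5.46 and 6.08. The VTA WT mean was 1.20 above that minimum. Grp was 1.84-fold lower (-0.88 ± 0.11, adjusted p = 0.119), while Sst was 1.96-fold higher (0.97 ± 0.21, adjusted p = 0.235). Gal (-0.58 ± 0.20), Npy (-0.57 ± 0.16) and Penk (-0.51 ± 0.16) also read lower on both VTA KO arrays than on both VTA WT arrays, with adjusted p between 0.319 and 0.413. Cck (0.31 ± 0.15) and Vip (0.49 ± 0.30) read higher on both, with intervals that included 0. Adcyap1 (0.22 ± 0.25) and Tac1 (-0.20 ± 0.37) overlapped between the groups.

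The test called 0 of the 10 in VTA KO against VTA WT, and it called 0.00904% of all probesets, so hardly any gene passed in this comparison. At the study's thresholds 1 precursor, Sst, was higher (1.92% of all) and 2, Nts and Grp, were lower (2.42% of all). At an unadjusted p under 0.05, 6 of the 10 passed, against 10.2% of all. Groups did not overlap for 3 precursors higher (17.5% of all) and 5 lower (20.7% of all). Leaving out VTA KO replicate 2, the array with 6.08 for Nts, gave a difference of -1.65 with an adjusted p of 0.0476, and leaving out VTA KO replicate 1, with 5.46, gave -1.03.

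In VTA the 6 ciliated cell markers summed to 1145 to 2064 in VTA KO and 3170 to 3515 in VTA WT, beside 438 to 472 in SNc KO and 384 to 425 in SNc WT, which is the order of the group means of Grp. The 3 GABAergic markers summed to 1055 to 1233 in VTA KO and 750 to 762 in VTA WT, where Gad2 and Slc32a1 read higher on both VTA KO arrays and Gad1 overlapped. The pericyte list was uneven within VTA KO, at 2169 on replicate 1 and 377 on replicate 2, against 1691 to 2325 in VTA WT. The part of these lists in the VTA differences was not tested.

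**Figure D2:**
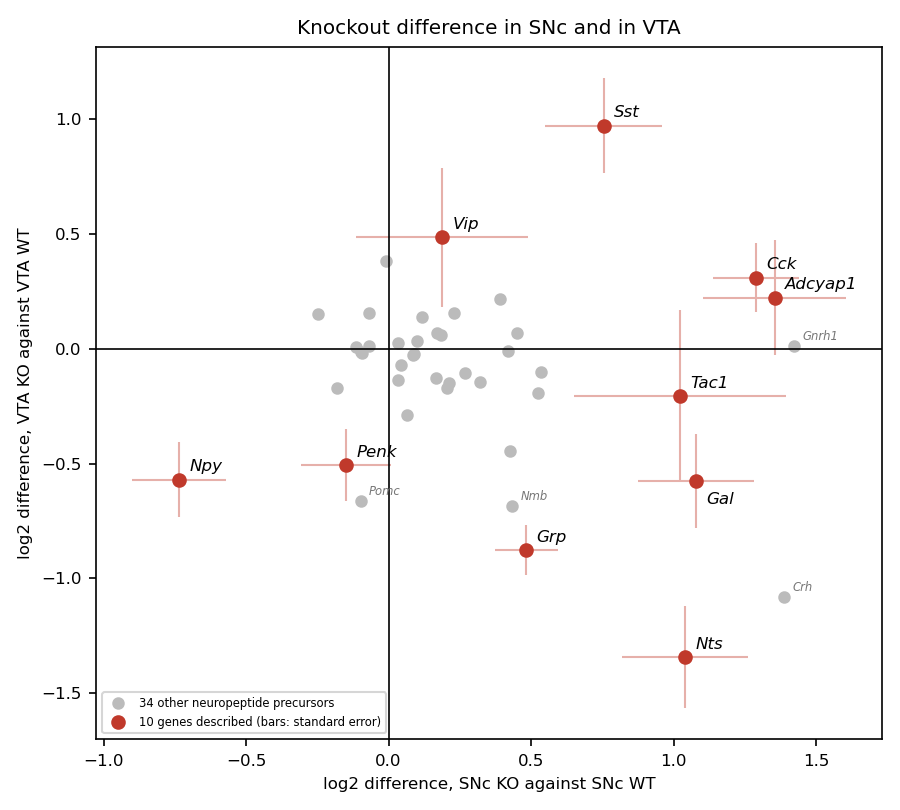
Knockout difference of each gene in SNc (SNc KO against SNc WT, horizontal axis, log2) and in VTA (VTA KO against VTA WT, vertical axis, log2), with red points and standard error bars for the 10 neuropeptide genes and grey points for 34 other neuropeptide precursors. Nts, Gal, Tac1 and Grp lie at the lower right, higher in SNc KO and lower in VTA KO, Npy and Penk at the lower left, and Sst, Cck, Adcyap1 and Vip at the upper right.

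The knockout differences in SNc and VTA had opposite signs for Nts, Gal, Grp and Tac1, and the groups did not overlap in either region for the first 3 of these. The VTA KO mean of Nts was under the signal minimum. Its difference between the 2 knockout effects was 2.38 ± 0.31 log2 (adjusted p = 0.145). The difference was 1.66 ± 0.29 for Gal (adjusted p = 0.261) and 1.36 ± 0.16 for Grp (adjusted p = 0.145). It was 1.13 ± 0.35 for Adcyap1 and 0.98 ± 0.21 for Cck, with adjusted p of 0.441 and 0.344. For Tac1 (1.23 ± 0.53), Sst (-0.22 ± 0.29), Npy (-0.17 ± 0.23), Vip (-0.30 ± 0.43) and Penk (0.36 ± 0.22) the interval included 0. Limma called 0 of the 10 and 0% of all probesets, so no gene on the array passed this test. The difference is signed, as the SNc effect minus the VTA effect. At an unadjusted p under 0.05 and the study's fold and signal minimums, it was positive for 5 precursors (3.68% of all). It was negative for 0 (3.06% of all). A positive value is not a larger change in SNc, since Nts (1.04 in SNc, -1.34 in VTA) and Grp (0.48 and -0.88) changed more in VTA. The median of the 10 was 1.06, against 0.04 over all probesets.

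SNc WT against VTA WT compares the regions without the mutation. Grp and Cck fell in SNc WT, where Grp was 3.24-fold lower (-1.69 ± 0.11 log2, adjusted p = 0.00996) and Cck 2.47-fold lower (-1.30 ± 0.15, adjusted p = 0.0286). Adcyap1 was 1.17 ± 0.25 log2 below VTA WT without passing (adjusted p = 0.107), and Vip (-0.64 ± 0.30) and Penk (-0.22 ± 0.16) had intervals that included 0. The other 5 read higher in SNc WT, led by Sst at 1.35 ± 0.21 log2 (adjusted p = 0.062). Nts was 0.80 ± 0.22 higher, Npy 0.78 ± 0.16 and Gal 0.70 ± 0.20, with adjusted p between 0.106 and 0.166, and Tac1 (0.89 ± 0.37) had an interval that included 0.

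The call was made for 2 of the 10, both lower in SNc WT, against 0.357% of all probesets lower and 0.0814% higher. At the study's thresholds 4 precursors were higher (2.66% of all) and 3 were lower (3.96% of all), and at an unadjusted p under 0.05, 7 of the 10 passed, against 18.8% of all. All 10 were free of overlap between the regions, 5 in each direction, where 58.3% of all probesets were. Leaving out either SNc WT or either VTA WT array ended both calls, with adjusted p of 0.0815 to 0.136 for Grp and 0.137 to 0.181 for Cck, and leaving out either SNc KO array ended that of Cck (0.0834 to 0.0854). Without a VTA KO array Sst and Adcyap1 passed too (adjusted p of 0.0143 and of 0.0296 to 0.03).

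Beside Grp and Cck, the ciliated list given above differed between SNc WT and VTA WT by more than any other marker list, and 2 of its 6 genes, Mia (-4.07 ± 0.28 log2) and Dynlrb2 (-3.67 ± 0.23), were called lower in SNc WT. They were also called in SNc KO against VTA KO, at -2.58 ± 0.28 and -2.33 ± 0.23. Mrc1 (1.26 ± 0.14) was called higher in SNc WT, as was Ndnf (1.30 ± 0.13) of the subset genes, and Otx2 (-1.84 ± 0.21) and Neurod6 (-2.83 ± 0.27) were called lower. Cx3cr1, the other macrophage list gene tested, averaged 6.86 in SNc WT and 6.90 in VTA WT. Relative to log2(60), SNc WT averaged -0.53 for Dynlrb2, -0.03 for Mia and -0.41 for Neurod6, and VTA WT averaged -0.46 for Mrc1. Slc17a6, the vesicular glutamate transporter of subcortical neurons, was lower in SNc WT by 0.87 ± 0.15 log2 without passing (adjusted p = 0.0747). Their part in the differences of the precursors was not tested. Array medians were 0.106 log2 lower in SNc WT. With each array centred on its median, all 10 directions stayed and Sst also passed (adjusted p = 0.0448).

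SNc KO against VTA KO, a comparison that the study did not make, gave the 3 largest differences of the 10 genes over the 4 comparisons, for Nts, Gal and Tac1. Nts rose in SNc KO over VTA KO by a measured 3.19 ± 0.22 log2 (95% interval 2.66 to 3.72, adjusted p = 0.0402). The VTA KO mean was under the signal minimum, with arrays at 5.46 and 6.08, and the SNc KO mean was 3.05 log2 above that minimum. Gal rose 5.10-fold (2.35 ± 0.20, 95% interval 1.86 to 2.84, adjusted p = 0.0402). Tac1 was 2.12 ± 0.37 higher (adjusted p = 0.121), Sst 1.14 ± 0.21 (adjusted p = 0.123) and Npy 0.62 ± 0.16 (adjusted p = 0.182), each without overlap. Vip (-0.94 ± 0.30), Grp (-0.33 ± 0.11) and Cck (-0.32 ± 0.15) read lower on both SNc KO arrays, with adjusted p between 0.216 and 0.321, and the interval of Cck (-0.69 to 0.04) included 0. Adcyap1 (-0.04 ± 0.25, 95% interval -0.65 to 0.56) and Penk (0.14 ± 0.16) overlapped between the groups. Grp and Cck, which were called lower in SNc WT, thus had smaller differences between the regions in KO pups. The difference of those 2 regional differences is the same quantity as the difference between knockout effects given above, which did not pass.

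Here 2 of the 10 were called, both higher, against 0.0407% of all probesets higher and 0.109% lower. At the study's thresholds 5 were higher (3.47% of all) and 1 was lower (3.5% of all). At an unadjusted p under 0.05, 7 of the 10 passed, against 17.5% of all, and groups did not overlap for 5 higher (26.8% of all) and 3 lower (21.8% of all). Both calls lay close to the threshold, with adjusted p of 0.0545 without VTA KO replicate 1 and of 0.0891 to 0.175 without any 1 array of the other groups, and passed without VTA KO replicate 2 (0.0157 for Nts and 0.0183 for Gal). No filter on signal (0.0778), array weights (0.0952 for Nts and 0.141 for Gal) and a fit of only the 4 arrays compared (0.235) also ended both calls, at the same log2 differences.

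**Figure D3:**
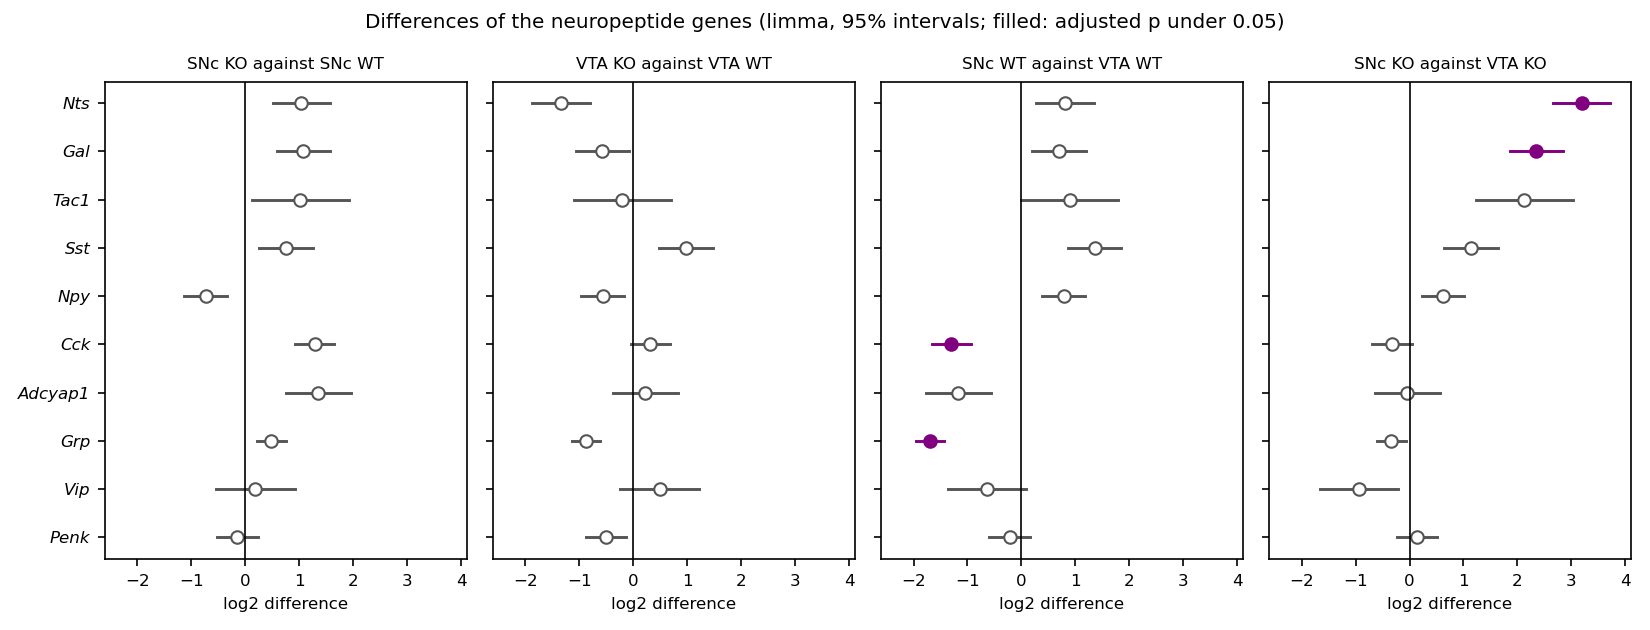
Log2 differences of the 10 neuropeptide genes in the 4 comparisons, with 95% intervals from limma and filled points at an adjusted p under 0.05. The filled points are Cck and Grp in SNc WT against VTA WT and Nts and Gal in SNc KO against VTA KO.

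Likeness of profiles was measured as the root mean square difference between 2 genes after each was centred on its own mean over the 8 arrays, among the 13264 genes tested. It is a description over 8 arrays that share their groups. The gene closest to Nts was Gal (0.383 log2), followed by Tac1 (0.512) and Gng8 (0.55), a G protein gamma subunit. Gng8 was also the closest to Tac1 (0.171), and for Gal the nearest were Tac1 (0.268), Gng8 (0.34) and Nts (0.383). Gng8 was thus among the nearest 3 genes of Nts, Gal and Tac1 alike. For Tac1 the third gene was Snord22 (0.412).

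Cck was closest to Sorcs3 (0.143), a sorting receptor of the sortilin family, and to Dgkk (0.166), a diacylglycerol kinase, with Adcyap1 the third (0.169). Adcyap1 was closest to Cck (0.169), then Sorcs3 (0.202) and Unc13c (0.205), a synaptic vesicle priming protein. Grp was closest to St3gal6 (0.145), a sialyltransferase, Spa17 (0.155), a sperm and cilium protein, and Kcnj10 (0.158), a potassium channel of glia. The part of ciliated or glial cells in the Grp signal was not tested.

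Sst was closest to Tfap2b (0.292), a transcription factor that read 7.20 and 7.98 in SNc KO, 6.84 and 7.10 in SNc WT, 6.48 and 5.78 in VTA KO, and 5.30 and 5.31 in VTA WT. Prkg2 (0.326) and Tcf7l2 (0.328) came next. Npy was closest to Tmtc2 (0.142), Pcdhb19 (0.151) and Mpp6 (0.16). Vip had the odorant receptor genes Olfr657 (0.21) and Olfr553 (0.218) and Elobl (0.221) nearest. These genes were under the signal minimum on most arrays. Olfr657 and Olfr553 read above it on VTA KO replicate 2 only (6.50 and 6.37), and Elobl on the VTA KO arrays only (6.26 and 6.48). Penk was not compared because its group means spanned less than 1 log2.

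**Figure D4:**
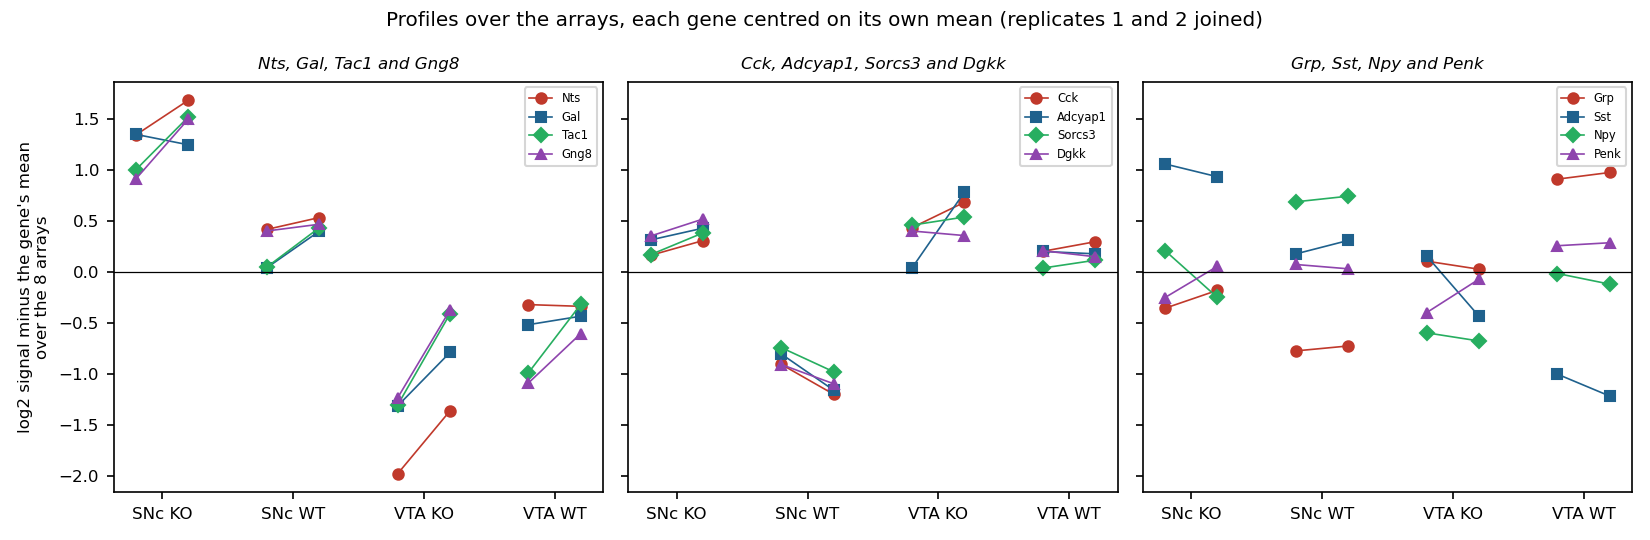
Log2 signal minus the gene's mean over the 8 arrays for Nts, Gal, Tac1 and Gng8 (left), Cck, Adcyap1, Sorcs3 and Dgkk (middle) and Grp, Sst, Npy and Penk (right), with the 2 arrays of each group joined by a line. The left genes are highest in SNc KO and below their means in both VTA groups, the middle genes are low in SNc WT only, and the right genes differ from each other.

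Of 50 other neuropeptide precursors listed, 47 had a probeset of their own and 34 were tested. Limma called 0 of them in each of the 4 comparisons and in the difference between knockout effects. At an unadjusted p under 0.05, 9 of the 34 passed in SNc KO against SNc WT (8.62% of all) and 4 in VTA KO against VTA WT (10.2% of all). Between the WT regions 10 passed (18.8% of all), and between the KO regions 5 (17.5% of all). At the study's thresholds 2 were higher in SNc KO than in SNc WT (1.84% of all). In VTA KO 3 were lower than in VTA WT (2.42% of all). In SNc WT 4 were lower than in VTA WT (3.96% of all). Relative to VTA KO, 1 was higher (3.47% of all) and 1 lower (3.5% of all) in SNc KO. The difference between knockout effects was positive for 4 (3.68% of all) and negative for 0 (3.06% of all). Their median absolute difference in SNc KO against SNc WT was 0.17, against 0.89 for the 10 described here and 0.14 over all probesets. The 10 were chosen with earlier results of these data known, so this contrast tests nothing. Several of the 34, such as Calcb and Gast, averaged near log2(60) in all groups.

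Crh, which encodes corticotropin-releasing hormone, was highest in SNc KO and lowest in VTA KO, with VTA WT above SNc WT. It read 6.72 and 7.00 in SNc KO, 5.76 and 5.18 in SNc WT, 5.04 and 4.94 in VTA KO, and 5.90 and 6.24 in VTA WT, so it passed a signal of 60 only on the SNc KO arrays and 1 VTA WT array. It was 1.39 ± 0.23 log2 higher in SNc KO than in SNc WT (adjusted p = 0.132) and stood at -1.08 ± 0.23 for the knockout in VTA (adjusted p = 0.235). SNc WT (-0.43) and VTA KO (-0.92) averaged below log2(60), so differences against them are from values under the signal minimum, and SNc KO averaged 0.95 above it. The knockout effects differed by 2.47 ± 0.32 (adjusted p = 0.145), and SNc KO was 1.87 ± 0.23 above VTA KO (adjusted p = 0.0594).

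Gnrh1, the gonadotropin-releasing hormone gene, was 1.42 ± 0.56 higher in SNc KO than in SNc WT, with SNc KO arrays as far apart as 6.78 and 8.13. In VTA KO against VTA WT, Nmb, a bombesin-like peptide as Grp is, was at -0.69 ± 0.12 and Pomc, the precursor of melanocortins and beta-endorphin, at -0.66 ± 0.15. The VTA KO means of Nmb (-0.07 relative to log2(60)) and Pomc (-0.39) were under the signal minimum. In SNc WT against VTA WT the lower genes besides Crh (-0.60 ± 0.23) were Nms (-0.91 ± 0.31), Nmb (-0.88 ± 0.12, adjusted p = 0.0504) and Pdyn, the prodynorphin gene (-0.86 ± 0.13, adjusted p = 0.0639). Nms was also lower in SNc KO than in VTA KO, at -0.83 ± 0.31. Relative to log2(60), the SNc WT means were -0.29 for Nms, -0.27 for Nmb and 0.03 for Pdyn, and the SNc KO mean of Nms was -0.06. For the knockout effects, Nmb (1.12 ± 0.17) and Pdyn (0.87 ± 0.19) followed Crh.

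Genes that process and release peptides had smaller differences than the 10 precursors, with a median absolute difference of 0.13 log2 in SNc KO against SNc WT and of 0.19 in SNc KO against VTA KO, near that of all probesets (0.14 and 0.21). Of 19 listed, 17 were tested, and 0 passed either the adjusted threshold or the study's thresholds in any comparison. At an unadjusted p under 0.05, 2 of the 17 passed in SNc KO against SNc WT, against 8.62% of all probesets. In VTA KO against VTA WT 1 passed (10.2% of all). Between the WT regions 2 passed (18.8% of all), and between the KO regions 6 (17.5% of all). Cpe, the carboxypeptidase that trims most precursors, lay between 11.38 and 11.52 on all 8 arrays. Pcsk1, a prohormone convertase, was at 8.00 and 8.16 in SNc KO, 7.90 and 7.57 in SNc WT, 7.91 and 8.21 in VTA KO, and 7.81 and 7.59 in VTA WT. Over the 17 genes the differences ran between -0.43 and 0.55 log2 in all comparisons.

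Among 26 receptors of the 10 peptides, 18 were tested and 0 passed adjustment in any comparison. At an unadjusted p under 0.05, 4 of the 18 passed in SNc KO against SNc WT, against 8.62% of all probesets. In VTA KO against VTA WT 4 passed (10.2% of all). Between the WT regions 6 passed (18.8% of all), and between the KO regions 5 (17.5% of all). The difference between knockout effects was positive at the study's thresholds for 1 receptor (3.68% of all) and negative for 0 (3.06% of all). The somatostatin receptor Sstr2 read 8.02 and 7.66 in SNc KO, 6.89 and 6.69 in SNc WT, 6.66 and 6.80 in VTA KO, and 6.96 and 6.67 in VTA WT. It was high in SNc KO alone, at 1.05 ± 0.17 log2 above SNc WT (adjusted p = 0.136) and 1.11 ± 0.17 above VTA KO (adjusted p = 0.107), and the knockout effects differed by 1.13 ± 0.25 (adjusted p = 0.344). Sstr1, a second somatostatin receptor, was 0.63 ± 0.14 higher in SNc KO than in SNc WT, and Npy1r, a neuropeptide Y receptor, 0.61 ± 0.13 higher in SNc KO than in VTA KO. The SNc WT mean of Sstr1 was under the signal minimum (-0.09 relative to log2(60)). Grpr, the receptor of gastrin-releasing peptide, read 6.59 and 6.50 in VTA KO and 6.04 and 5.77 in VTA WT, a difference of 0.64 ± 0.14 (adjusted p = 0.235), where Grp itself read lower in VTA KO. The VTA WT mean of Grpr was just under the signal minimum (-0.004 relative to log2(60)). Ntsr1, the neurotensin receptor of mDA neurons, was at 7.42 and 7.54 in SNc KO, 7.59 and 7.41 in SNc WT, 6.84 and 6.96 in VTA KO, and 7.56 and 7.12 in VTA WT.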

How the data were processed

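Expression values were the log2 signals deposited by the authors, who amplified RNA of sorted cells linearly (WT-Ovation Pico), hybridized it to Affymetrix Mouse Gene ST arrays and summarised and normalized the probes by RMA (RMA Express per the methods, version and genome build not given in the sources used here). Values were not centred per gene. A normalization with LPE in FlexArray is described as well. Its bearing on the deposited values is not stated, and LPE was not run. The number of arrays, 2 a group, limits the precision. Of 35512 probesets, 21789 carry 1 gene symbol, 1621 several and 12102 none, and the ID and symbol of all 10 genes matched the GRCm38.p6 gene table.

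The 10 genes and the other gene lists were chosen with earlier results of these data known. All 8 arrays were fitted with limma 3.58.1 in R 4.3.3 (lmFit and eBayes, 1 mean a group, 4 residual and 2.40 prior degrees of freedom). Probesets with a linear group mean of at least 60 in at least 1 group were tested (22112), p-values were adjusted by Benjamini-Hochberg over all of them and calls were made under 0.05. The study's thresholds were applied separately with limma's p, its threshold being read as at most 0.05. On simulated data, 35% of 2-fold and 79.5% of 4-fold changes were called in SNc KO against SNc WT, and 0% of 1.5-fold changes. The simulation changed a small set of probesets by a single fixed fold, with normal noise of the same spread in all groups. In the data VTA KO varied more and changes had many sizes, so these rates may not hold for them. Named were all 10 genes, and of the other lists those called and up to 3 of largest difference in each direction at the study's thresholds. The 3 genes of most similar profile were named for those of the 10 whose group means span at least 1 log2. Marker lists were summed on the linear scale. Alternatives were no signal filter, only the arrays compared, replicate number as a block, a variance trend, array weights, median centring, quantile normalization and leaving out each array. Sequences were read from RefSeq promoter windows. Figures were drawn with matplotlib 3.10.9.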

Additional observations from a re-analysis of the deposited data

Results flagged for a closer look

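In SNc the KO arrays read higher than the WT arrays, and in VTA lower, for Nts, Gal and Grp, with no overlap in either region. The difference between the knockout effects was 2.38 log2 for Nts (adjusted p = 0.145), 1.66 for Gal (adjusted p = 0.261) and 1.36 for Grp (adjusted p = 0.145). It was tested with limma and did not pass for any of the 3. With 1 array left out, it ranged between 2.07 and 2.69 for Nts, between 1.39 and 1.92 for Gal and between 1.27 and 1.45 for Grp.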

How the results depend on the processing

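Of the 50 differences of the 10 genes, 41 kept their sign in all alternatives that gave a value. Against 0 calls in SNc KO against SNc WT, array weights gave 1 and the study's thresholds 7, and leaving out arrays gave 0 to 0. In VTA KO against VTA WT (0 calls), the study's thresholds gave 3 and leaving out arrays 0 to 1. In SNc WT against VTA WT (2 calls), no filter gave 1, the replicate block 1, array weights 6, the study's thresholds 7 and leaving out arrays 0 to 4. In SNc KO against VTA KO (2 calls), no filter, only the arrays compared, the replicate block and array weights gave 0 each, the study's thresholds 6 and leaving out arrays 0 to 4. For the difference between knockout effects (0 calls), the study's thresholds gave 5 and leaving out arrays 0 to 0. The cause of these shifts was not tested. Same-numbered arrays did not deviate together (correlations of 0.00577 to 0.098), so the numbers do not pair them. With the replicate block, adjusted p was 0.0606 for Cck between the WT regions, and between the KO regions 0.0576 for Nts and 0.0959 for Gal.

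Signs turned for small differences, whose ranges over the arrays left out follow. In SNc KO against SNc WT, Vip ranged from -0.0813 (without SNc WT replicate 2) to 0.455 and was -0.0647 without SNc KO replicate 1, and Penk ranged from -0.303 to 0.00304 (without SNc KO replicate 1). In VTA KO against VTA WT, Adcyap1 ranged from -0.149 (without VTA KO replicate 2) to 0.595, and Tac1 from -0.653 to 0.243 (without VTA KO replicate 1), with 0.131 when VTA WT replicate 2 was left out. In SNc KO against VTA KO, Adcyap1 ranged from -0.413 to 0.331 (without VTA KO replicate 2), with 0.0332 under median centring and 0.0166 without SNc KO replicate 1, and Penk ranged from -0.0269 (without VTA KO replicate 1) to 0.301 and was -0.016 without SNc KO replicate 2. For the knockout effects, the ranges were -0.648 to 0.0503 (without VTA KO replicate 2) for Vip, -0.396 to 0.0637 (without SNc KO replicate 2) for Npy and -0.514 to 0.0778 (without VTA KO replicate 1) for Sst. Each gene has 1 probeset, so a mean of probesets gave no other value, and the difference between knockout effects needs all groups, so it had no fit on fewer.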
